A study of Homo sapiens with 6 samples.

Results

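NF-kB is a family of transcription factors, and the genes described here encode its 5 subunits (NFKB1, NFKB2, RELA, RELB and REL), 3 inhibitors that hold the subunits in the cytoplasm (NFKBIA, NFKBIB and NFKBIE), the deubiquitinase TNFAIP3 and the kinase IKBKB. These 10 genes were chosen by name, as members of 1 pathway, and all were measured. They were read by the 18 probe sets that name 1 of them alone, out of 22215 probe sets and 12165 genes on the array. A further probe set that names IKBKB together with another gene was left out. Of the members, 4 had 1 probe set, 4 had 2 and 2 had 3. LNCaP, an established and androgen-responsive line of human prostate cancer cells, was exposed for 6 h to 20 µM gedunin, a limonoid natural product of the neem tree, or to DMSO, its solvent. There were 3 arrays for each, numbered in the labels as biological replicates, with no word on how the cultures were separated, so the p-values cover only the spread among these arrays. The labels state the growth medium and serum for the cells and no genetic change. They name 1 cell line for every array, although most prostate markers were low and most leukocyte markers high on DMSO 3, as given below. The comparison says nothing of other prostate cells.

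At rest, dimers of the subunits are kept out of the nucleus by the IkB proteins. Cytokine and stress signals activate the IkB kinase complex, in which IKBKB is a catalytic subunit; it marks IkB proteins for destruction and frees the dimers. The genes for several subunits, for IkB-alpha and for TNFAIP3 are themselves NF-kB targets, so that the pathway resupplies its parts and its brakes. Among prostate cancer lines, LNCaP is known for low resting NF-kB activity.

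The array labelled DMSO 3 stood apart from the other 5 and is shown separately throughout. Its Spearman correlation with them over all probe sets was 0.812 to 0.819, against 0.965 to 0.980 among the others. Of 9 measured markers of luminal prostate cells, 8 were at least 4-fold below the mean of DMSO 1 and 2 on it, and KLK3, the gene of prostate-specific antigen, read 24.5 there and 1702 to 2093 on the other 5 arrays. Of 15 leukocyte markers, 12 were at least 4-fold above that mean, among them the B-cell surface gene MS4A1, at 2138 against 21.8 to 28.3. The T-cell genes CD3D and CD3E and the monocyte gene CD14 read 18.8 to 20.9 on it. The comparison below therefore sets the 3 gedunin arrays against DMSO 1 and 2. Values with all 6 arrays are given where a member was called.

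With gedunin, the NFKB1 and NFKBIA transcripts fell to 57.3% and 59.4% of their control levels, RELA fell by less, and NFKBIE rose. A gene was called when limma's adjusted p (Benjamini-Hochberg over all probe sets) was under 0.05, using for each gene its brightest probe set (by the mean of the 6 arrays). By this rule 3 of the 10 members fell, 1 rose and 6 were not called. Of all 12165 genes, 9.35% were called lower and 8.22% higher, 17.6% in all. The median log2 fold change, gedunin over DMSO, was -0.18 over the members and -0.017 over all genes. For 7 members the gedunin arrays did not overlap with DMSO 1 and 2, with 5 below and 2 above, but this was so for 46.2% of all genes. Of the 2 above, NFKBIB was read by a probe set that was its brighter one only with DMSO 3 counted. On its other probe set the groups overlapped. With all 6 arrays limma called 0 members, against 1.68% of genes; 3 members, NFKB1, NFKBIA and IKBKB, were lower there at an unadjusted p under 0.05. An array averages over its culture, so a change in every cell and a larger one in some cells cannot be told apart.

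**Figure D1:**
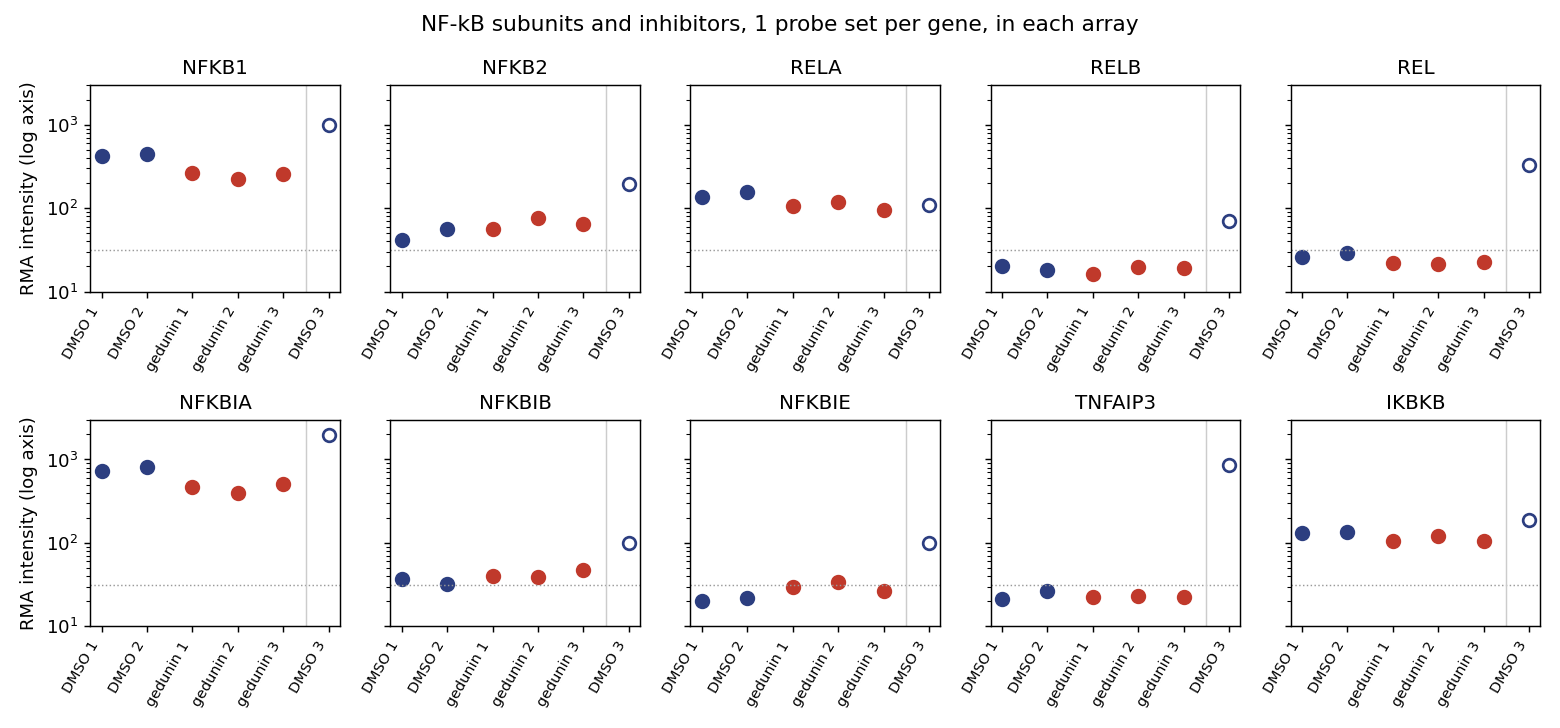
RMA intensity on a log axis of each member's representative probe set on each of the 6 arrays, with DMSO in blue, gedunin in red and the array labelled DMSO 3 as an open circle to the right of the line; the dotted line is the mean of the array medians. NFKB1, NFKBIA and RELA were lower on every gedunin array than on DMSO 1 and 2, NFKBIE was higher, and TNFAIP3 lay above the dotted line only on DMSO 3.

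NFKB1 and NFKBIA, the members that fell most, each carry a kappa B match close upstream of the transcription start, as do other members. The match was the motif GGGNNTTTCC on either strand, searched in the RefSeq promoter windows (GRCh38.p14) of 250 bases before to 50 after each start. It was found in 7 of 12 windows of the members, beside 1.91% of all 35116 windows. These windows belong to 6 of the 7 members that had a window, all but RELA. The textbook kappa B consensus, which overlaps with this motif, was also in 7 of the 12 windows, beside 11.3% of all windows. Several members are known NF-kB targets, and members and motif were chosen with earlier results known, so these shares are no test. RELB, NFKBIE and IKBKB were not searched. Below, capitals mark the match. REL was dim in LNCaP and, on 1 of its 2 probe sets, bright on DMSO 3. The first 3 sequences are the 120 bases before the gene's outermost start, for the 2 members that fell most and for REL. They are on the gene's strand, at chr4:102501239-102501358 (+) for NFKB1, chr14:35404750-35404869 (-) for NFKBIA and chr2:60881454-60881573 (+) for REL.
NFKB1: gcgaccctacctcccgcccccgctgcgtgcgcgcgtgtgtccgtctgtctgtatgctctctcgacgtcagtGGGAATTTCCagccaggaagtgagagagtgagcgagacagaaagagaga
NFKBIA: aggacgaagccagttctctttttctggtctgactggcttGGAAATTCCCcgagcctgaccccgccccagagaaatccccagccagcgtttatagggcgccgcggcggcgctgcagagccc
REL: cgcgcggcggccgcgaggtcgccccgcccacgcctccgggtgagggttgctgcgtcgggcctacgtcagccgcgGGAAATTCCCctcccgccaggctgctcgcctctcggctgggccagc

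In NFKB1 the match begins 49 bases before the start, and in NFKBIA and REL, where it lies on the opposite strand, 81 and 46 bases before it. The capitals of NFKBIA and REL are the same 10 bases, and those of NFKB1 are their reverse complement. The other members are shown by 30 bases around each match, at chr6:137867182-137867211 (+) and chr6:137867194-137867223 (+) for TNFAIP3, chr10:102394490-102394519 (+) and chr10:102395674-102395703 (+) for NFKB2, and chr19:38899931-38899960 (+) for NFKBIB. Of the 3 NFKB2 starts with a window, the outermost held no match, and the sequences shown belong to the middle and the last one. The outermost NFKBIB start held none either, and the sequence shown belongs to a later start. For TNFAIP3 the only window was not that of the gene's outermost start. TNFAIP3 has a pair of matches that follow each other, both on the opposite strand.
TNFAIP3, far match: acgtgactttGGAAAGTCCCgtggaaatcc
TNFAIP3, near match: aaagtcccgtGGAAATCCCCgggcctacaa
NFKB2, middle start: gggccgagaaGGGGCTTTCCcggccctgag
NFKB2, last start: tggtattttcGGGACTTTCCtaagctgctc
NFKBIB: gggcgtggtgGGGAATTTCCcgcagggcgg

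These are matches of letters only, and no binding was measured. Of the members that hold one, NFKB1 and NFKBIA were called lower with gedunin, and NFKB2, REL, NFKBIB and TNFAIP3 were not called. REL was just short of the threshold (limma adjusted p = 0.0511). REL and TNFAIP3 read below the array median on all 5 arrays, so a fall in them could be missed. Whether the matches play a part was not tested.

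NFKB1 encodes p105, the precursor that is processed to the DNA-binding subunit p50. Its intensity was 425 and 441 on DMSO 1 and 2, and 263, 225 and 258 on gedunin arrays 1, 2 and 3. Every gedunin array lay well below both controls, and each group was tight. The log2 fold change was -0.80 ± 0.10 (moderated SE, n = 3 and 2 arrays; limma adjusted p = 4.36e-04), which left 57.3% of the DMSO level. Leaving out any 1 of the 5 arrays kept the call, with an adjusted p of at most 0.0101. On DMSO 3 it read 987, and the value with all 6 arrays was -1.20 ± 0.35 (adjusted p = 0.252).

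RELA encodes p65, the subunit that carries the transactivation domain of the classical dimer. On its brighter probe set it read 137 and 155 on DMSO 1 and 2 and 107, 118 and 95.8 with gedunin. The groups did not overlap, and RELA fell by 0.45 ± 0.11 on the log2 scale (limma adjusted p = 0.0201). Its other probe set read 101 and 94.1 against 77.2, 88.6 and 101, with overlapping groups and a log2 fold change of -0.14 ± 0.12 (adjusted p = 0.496). The call thus came from 1 of 2 probe sets. It was also lost without gedunin 1 (-0.46, adjusted p = 0.0502), without DMSO 1 (-0.54, adjusted p = 0.0563) and without DMSO 2 (-0.37, adjusted p = 0.178). With all 6 arrays the value was -0.32 ± 0.16 (adjusted p = 0.542). RELA was the 1 member lower on DMSO 3 than on DMSO 1 and 2, at 110.

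NFKB2 encodes p100, the precursor of p52 in the non-canonical pathway. Its brightest probe set read 41.8 and 57.0 on DMSO 1 and 2 and 55.9, 75.3 and 63.9 with gedunin. Gedunin 1 lay below DMSO 2, so the groups overlapped, and the log2 fold change of 0.40 ± 0.15 was not called (limma adjusted p = 0.118, 95% interval 0.061 to 0.75). The other probe sets, which lay below the array median, had 0.074 ± 0.12 and -0.096 ± 0.09.

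REL, the lymphoid subunit c-Rel, read 25.7 and 28.9 on DMSO 1 and 2 and 22.1, 21.3 and 22.7 with gedunin on its brighter probe set. All 5 values lay below the array medians of 31.1 to 31.8, where RMA compresses folds. The groups did not overlap, but the log2 fold change of -0.31 ± 0.09 was just short of the threshold (limma adjusted p = 0.0511). It passed when the 5 arrays were quantile-normalized again (adjusted p = 0.0481), and the other probe set had -0.12 ± 0.10 (adjusted p = 0.490). RELB, the partner of p52, read 20.2 and 18.3 against 16.1, 19.8 and 19.0, close to the lower quartile of each array. Its groups overlapped, with a log2 fold change of -0.074 ± 0.11 (adjusted p = 0.733). No detection calls were given, so these values do not show whether REL or RELB was transcribed in LNCaP.

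**Figure D2:**
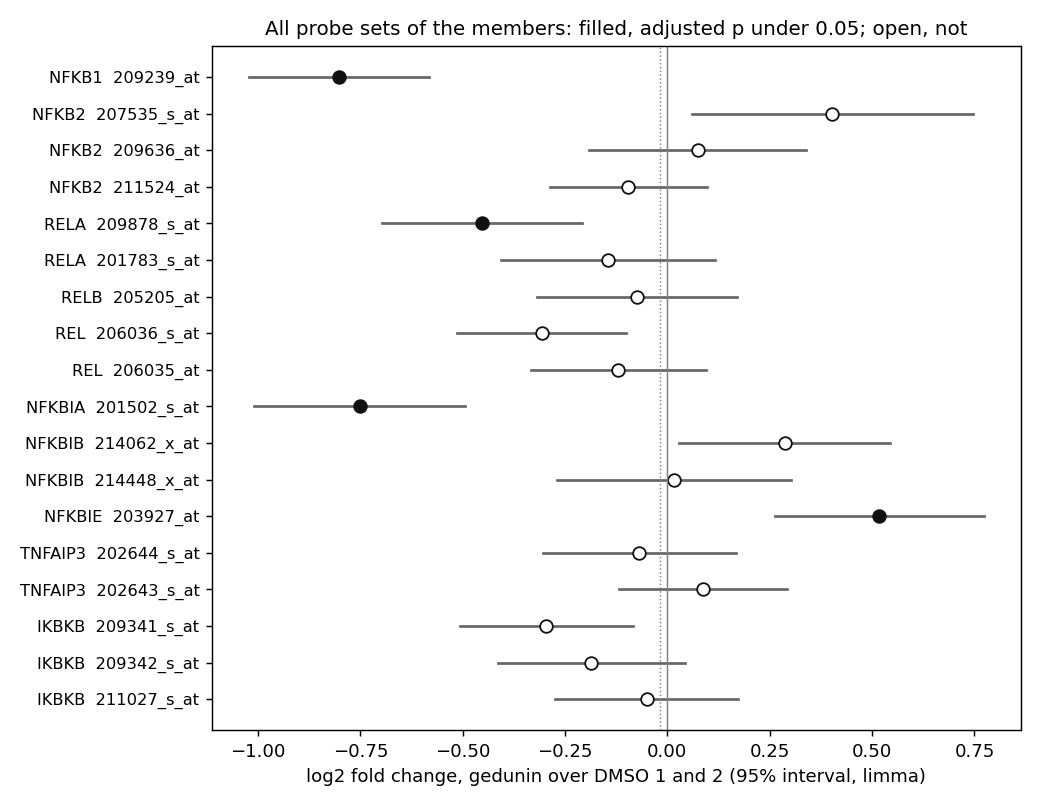
Log2 fold change, gedunin over DMSO 1 and 2, of all 18 member probe sets with limma's 95% interval; filled points passed an adjusted p of 0.05 and the dotted line is the median of all genes. NFKB1 (-0.80), NFKBIA (-0.75) and 1 of 2 RELA probe sets (-0.45) fell, NFKBIE (0.52) rose, and the other 14 were not called.

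Of the inhibitors, NFKBIA fell, NFKBIE rose and NFKBIB was not called. NFKBIA encodes IkB-alpha, the fast-turnover inhibitor that NF-kB itself induces. It read 732 and 807 on DMSO 1 and 2 and 464, 401 and 513 with gedunin. The lowest control was well above the highest gedunin array. The log2 fold change was -0.75 ± 0.12 (limma adjusted p = 0.00168), or 59.4% of the DMSO level, close to the change of NFKB1, whose interval (-1.02 to -0.58) overlapped with that of NFKBIA (-1.01 to -0.49). The call held without any 1 of the 5 arrays, with an adjusted p of at most 0.0313. On DMSO 3 it read 1967, and with all 6 arrays the value was -1.20 ± 0.40 (adjusted p = 0.323).

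NFKBIE, the gene of IkB-epsilon, read 19.9 and 21.7 on DMSO 1 and 2 and 29.3, 33.8 and 26.5 with gedunin. All gedunin arrays were higher, from a control level near the lower quartile to one around the array median. It rose by 0.52 ± 0.11 on the log2 scale as measured (limma adjusted p = 0.0127). With controls this dim the size is a lower bound at best, since their signal cannot be told from background. The call was lost without DMSO 1 (0.46, adjusted p = 0.123) and without DMSO 2 (0.58, adjusted p = 0.0565). Its 6-array value had the opposite sign, -0.24 ± 0.65 (adjusted p = 0.898), since DMSO 3 read 99.7.

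NFKBIB, the gene of IkB-beta, which gives a slower and longer-lasting inhibition, read 37.3 and 31.9 on DMSO 1 and 2 and 40.7, 38.7 and 47.6 with gedunin. The groups did not overlap, but the margin between DMSO 1 and gedunin 2 was small, and the log2 fold change of 0.29 ± 0.12 was not called (limma adjusted p = 0.139). Its other probe set, the brighter one when DMSO 3 is left out, read 34.4 to 46.2 over the 5 arrays. Its groups overlapped, with a value of 0.016 ± 0.13.

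TNFAIP3, which encodes A20, an ubiquitin-editing brake on the kinase complex, stayed at the bottom of the scale in LNCaP. Its brighter probe set read 21.5 and 26.6 on DMSO 1 and 2 and 22.5, 23.3 and 22.6 with gedunin, and the other read 17.1 to 19.7 over all 5. The groups overlapped on both, with log2 fold changes of -0.069 ± 0.11 (limma adjusted p = 0.744; 95% interval -0.30 to 0.17) and 0.086 ± 0.09.

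IKBKB, the catalytic subunit IKK-beta, read 133 and 137 on DMSO 1 and 2 and 107, 120 and 104 with gedunin on its brightest probe set. All gedunin arrays were lower, but the log2 fold change of -0.30 ± 0.09 was not called (limma adjusted p = 0.0656). It passed without gedunin 2 (-0.36, adjusted p = 0.0464), and also with a filter on dim probe sets (adjusted p = 0.0446) or a pseudocount of 16 (adjusted p = 0.0392). The other probe sets had -0.19 ± 0.10 (adjusted p = 0.288) and -0.051 ± 0.10 (adjusted p = 0.808), in the same direction and smaller.

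The reference used to centre the arrays bears on the small changes. ACTB itself read higher with gedunin, at 13255, 12559 and 12655 against 9921 and 10630 on DMSO 1 and 2, while GAPDH read 10189 to 10859 against 10124 and 10411. Centring on the mean of both moved the median of all genes to -0.19, and turned the split of called genes from 1000 higher and 1138 lower into 651 and 3137. NFKB1 then had -0.97, NFKBIA -0.92, RELA -0.62 and NFKBIE 0.35, all called, and IKBKB (-0.47, adjusted p = 0.00765) and REL (-0.48, adjusted p = 0.00448) were called lower as well. This centring moved every fold change down by the same amount, so NFKB1, NFKBIA and RELA could only fall further. NFKBIE, the called member that rose, kept its direction on this scale.

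Other genes of the pathway were taken from 3 lists. Of the 79 genes measured, 12 rose and 5 fell, beside 8.22% and 9.35% of all genes, and the median log2 fold change was 0.031. Without DMSO 1, and likewise without DMSO 2, 7 rose and 4 fell. With all 6 arrays 1 was called, the signalling adaptor gene BCL10 (1.01, adjusted p = 0.0291).

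Among 22 further regulators (other kinases of the complex, IkB-like proteins and negative regulators), 7 rose and 1 fell, beside 8.22% and 9.35% of all genes. The median was 0.18, against -0.017 over all genes. CYLD, a deubiquitinase that restrains the pathway, rose on its brightest probe set. It read 96.8 and 116 on DMSO 1 and 2 and 244, 227 and 221 with gedunin, well apart, a log2 fold change of 1.12 ± 0.10 (limma adjusted p = 7.05e-05), although only 2 of its 7 probe sets were called. Over the mean of its probe sets the value was 0.33 (adjusted p = 0.0118). ZC3H12A, an RNase that destroys inflammatory transcripts and is itself induced by NF-kB, fell by 1.06 ± 0.14, from 155 and 138 to 84.5, 58.4 and 69.6 (adjusted p = 7.64e-04).

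Of the other regulators, RNF11, a partner of A20, rose by 0.63, and ITCH, a ubiquitin ligase of the same complex, by 0.62. For ITCH, 2 of 3 probe sets were called. NFKBIL1, an IkB-like gene, rose by 0.66 and the IKK-related kinase TBK1 by 0.50. IKBKG, the regulatory subunit NEMO of the kinase complex, rose by 0.33 ± 0.09 (limma adjusted p = 0.0288) on 1 of its 2 probe sets, and the repressor NKRF by 0.33 ± 0.09 (adjusted p = 0.0282). Calls were lost without DMSO 1 for ITCH (0.61), TBK1 (0.48), NFKBIL1 (0.55), IKBKG (0.34) and NKRF (0.33), and without DMSO 2 for ITCH (0.63), TBK1 (0.52), IKBKG (0.33) and NKRF (0.33). Those of IKBKG and NKRF were lost without gedunin 1 (0.34 and 0.35) and gedunin 2 (0.30 and 0.35) too, and that of NKRF without gedunin 3 (0.30). Centring on GAPDH and ACTB also ended the calls of IKBKG (0.16, adjusted p = 0.243) and NKRF (0.16, adjusted p = 0.244). CHUK, the kinase IKK-alpha, had -0.16 ± 0.09 (adjusted p = 0.30) and BCL3, a nuclear IkB protein, -0.19 ± 0.11 (adjusted p = 0.298); neither was called.

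Of 29 measured genes upstream of the kinase complex, 3 rose and 3 fell, beside 8.22% and 9.35% of all genes. The median was -0.052, against -0.017 over all genes. TNFRSF1A, the main receptor for TNF, rose by 1.25 ± 0.11, from 175 and 178 to 403, 482 and 379 (limma adjusted p = 5.40e-05). BCL10, an adaptor that links receptors to the kinase complex, rose by 1.11 ± 0.09 (adjusted p = 2.27e-05), and TAB2, which recruits the kinase TAK1, by 0.75 ± 0.09 (adjusted p = 2.81e-04). TRAF4 fell by 0.68, MYD88, the adaptor of Toll-like and IL-1 receptors, by 0.60 and TRADD, the adaptor of the TNF receptor, by 0.34. The call of TRADD was made by 1 of its 3 probe sets, and was lost without gedunin 1 (-0.35), gedunin 3 (-0.32), DMSO 1 (-0.37) or DMSO 2 (-0.31).

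**Figure D3:**
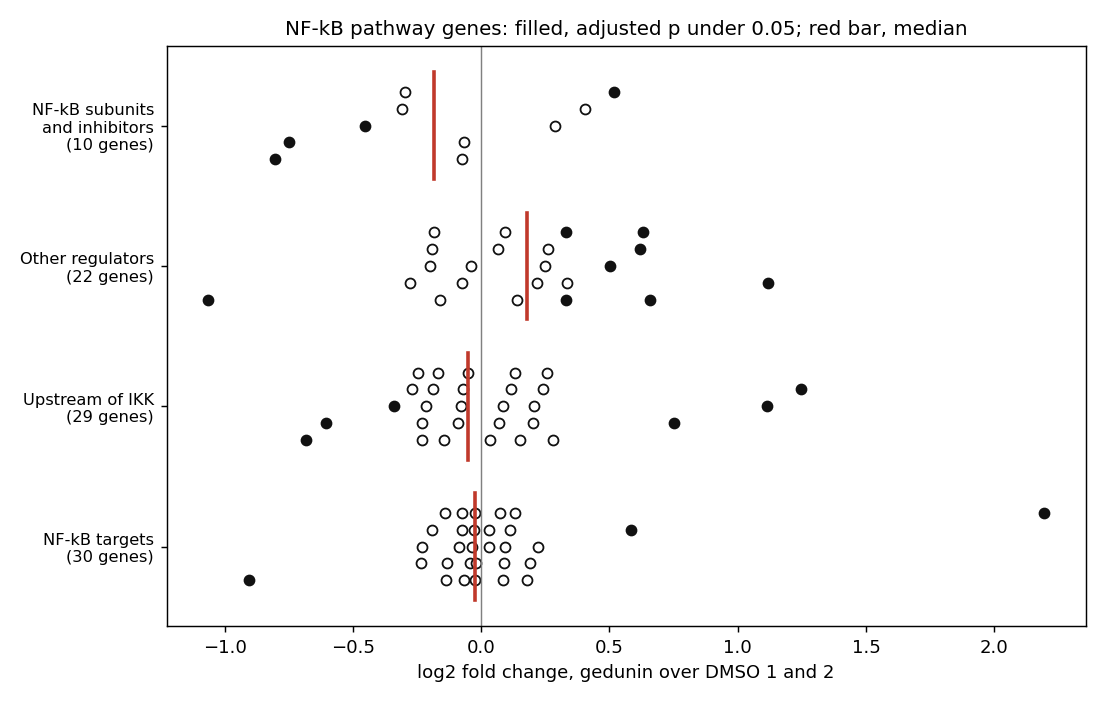
Log2 fold change, gedunin over DMSO 1 and 2, of each measured gene in 4 lists (1 point per gene, filled where the adjusted p was under 0.05, the red bar at the list's median). The members' median was -0.18, that of other regulators 0.18, of upstream genes -0.052 and of target genes -0.024.

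Of 30 measured genes widely listed as NF-kB targets, 2 rose and 1 fell, beside 8.22% and 9.35% of all genes, with a median of -0.024. Of these target genes, 24 had a mean below the median of all values over the 5 arrays, as did 43.5% of all genes. The chemokine gene CXCL8 read 17.6 and 15.5 on DMSO 1 and 2 and 18.5, 19.9 and 19.4 with gedunin, at 0.22 ± 0.09 (limma adjusted p = 0.163). ICAM1, an adhesion receptor, had -0.042 ± 0.09, SOD2, a mitochondrial superoxide dismutase, 0.031 ± 0.11, and the cytokine genes TNF and IL6 -0.085 ± 0.11 and 0.088 ± 0.10. None of these 5 was called. CXCL8, TNF and IL6 read 13.5 to 19.9 on the 5 arrays, around the lower quartile of each array (19.4 to 19.8). Such values cannot be told from background, so a fall in these genes could not be seen. ICAM1 read 29.5 to 33.8, around the array medians of 31.1 to 31.8.

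VEGFA, an angiogenic growth factor that many stress pathways induce, rose by 2.19 ± 0.10 (limma adjusted p = 5.29e-07), on 4 of 4 probe sets. It read 279 and 242 on DMSO 1 and 2 and 1279, 1148 and 1139 with gedunin. CCND1, the gene of cyclin D1, fell by 0.91 ± 0.13 (adjusted p = 0.00125), from 330 and 303 to 193, 177 and 140. GADD45B, a stress sensor, rose by 0.59 ± 0.12 (adjusted p = 0.0102), but the call was lost without DMSO 2 (0.47). The value with all 6 arrays was -0.46. Only 2 of its 4 probe sets were called, and over the mean of its probe sets the value was 0.32 (limma adjusted p = 0.0205). On DMSO 1 and 2 GADD45B read 30.7 and 26.0, below the array median. VEGFA, CCND1 and GADD45B have other known inducers besides NF-kB, and the part of any of them was not tested.

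On the array labelled DMSO 3, 9 of the 10 members read higher than the mean of DMSO 1 and 2, with a median log2 difference of 1.68 against 0.012 over all genes. This is 1 array and carries no test. TNFAIP3 read 853 and 390 on its probe sets, against 17.1 to 26.6 on DMSO 1 and 2. REL read 332 on its brighter probe set against 25.7 and 28.9, but 20.7 on the other against 16.4 and 17.9. NFKBIE read 99.7 against 19.9 and 21.7. These 3 members were more than 4-fold higher as measured, as were 4.0% of all genes. Their control values, like those of RELB, lay below the array median and cannot be told from background, so no exact fold is given for them.

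RELB read 69.2 on DMSO 3, against 20.2 and 18.3. NFKB2 (193.5) and NFKBIB (98.7) were 3.96-fold and 2.86-fold above the mean of DMSO 1 and 2, NFKBIA 2.56-fold, NFKB1 2.28-fold and IKBKB 1.41-fold. The NFKBIB probe set was chosen with DMSO 3 counted, and the other one read 64.7 there, against 42.6 and 38.6. The other NFKB2 probe sets read 96.4 against 26.6 and 22.8, and 17.5 against 18.1 and 16.9. Of the target genes, 12 of 30 were at least 4-fold higher on DMSO 3, beside 4.0% of all genes. Among them were CXCL8 at 693 and ICAM1 at 565, although the CXCL8 values on DMSO 1 and 2 cannot be told from background. Leukocyte markers were higher on the same array, 12 of 15 of them, with a median log2 difference of 5.15, and their part in the members' values was not tested. On the other 5 arrays these markers, apart from the actin-bundling gene LCP1 (564 to 748), read between 14.0 and 29.6.

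**Figure D4:**
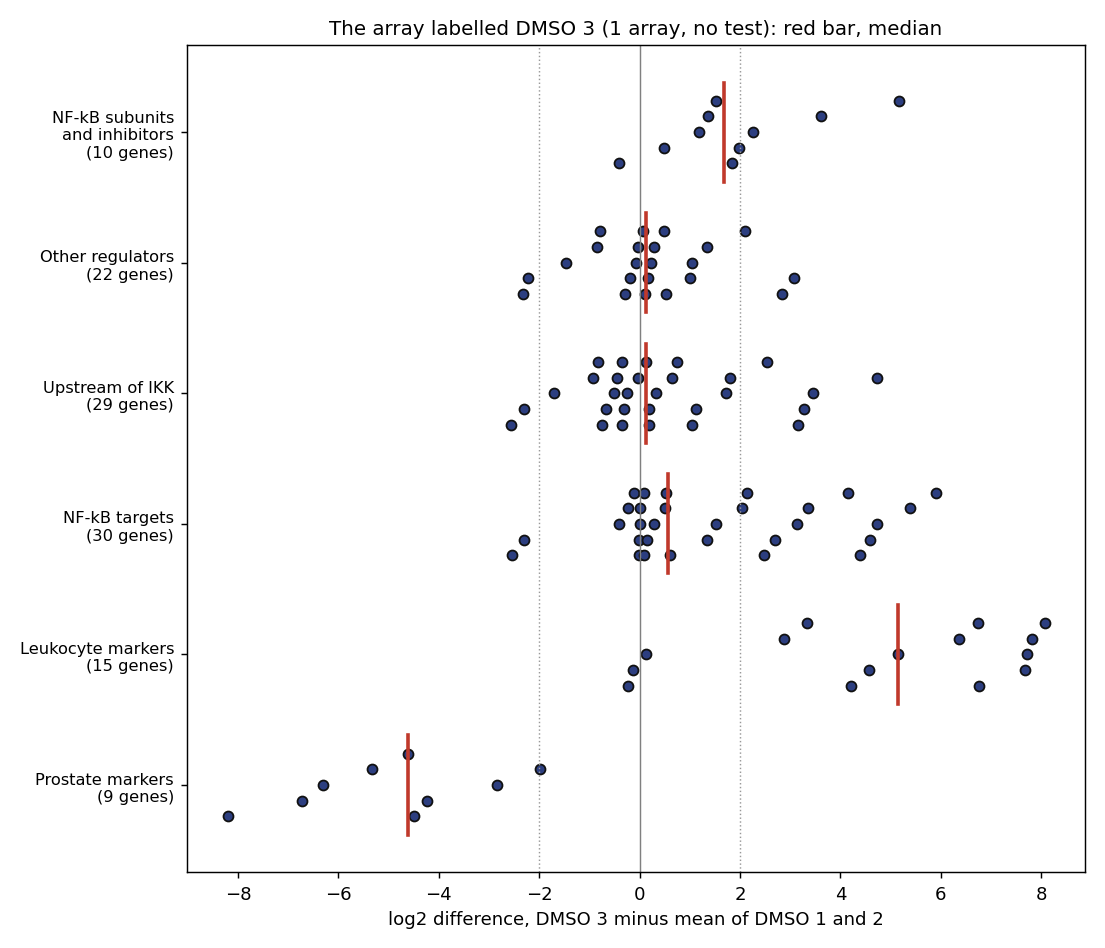
Log2 difference between the array labelled DMSO 3 and the mean of DMSO 1 and 2 for each gene of 6 lists (1 point per gene, red bar at the median, dotted lines at 4-fold; 1 array, no test). The members' median was 1.68, that of leukocyte markers 5.15 and that of prostate markers -4.61.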

How the data were processed

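The authors normalized the 6 arrays with RMA (no version stated), per the submitters' processing notes; chip definition and joint processing are not given in the sources used here. The deposited intensity values were linear, so log2 was taken. No raw files or detection calls were used. Probe sets were named by the platform's annotation of genes (19724 named 1 gene, 568 several, 1923 none listed). The fit was limma 3.58.1 (R 4.3.3; lmFit, eBayes) over all probe sets, gedunin against DMSO 1 and 2, tested on simulated data. The members, lists and kappa B motif were chosen with earlier results of these data known. All members were named, with up to 8 called genes per pathway list by size, and CHUK, IKBKG, BCL3, CXCL8, IL6, TNF, ICAM1 and SOD2; BIRC3 and NFKBIZ are not analysed here. A rule naming the genes most like a member applied to members changed by at least 1 on the log2 scale, of which there were 0. Alternatives covered arrays, a replicate block, centring, normalization, a dim filter, a pseudocount of 16, variance model, threshold and probe set choice.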

Additional observations from a re-analysis of the deposited data

Results flagged for a closer look

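Of the members, 3 carried signal on the array labelled DMSO 3, which is outside the comparison, at least 4-fold above the control arrays DMSO 1 and 2. The log2 difference from their mean was 5.16 for TNFAIP3, 3.60 for REL and 2.26 for NFKBIE, as measured. The control values lay below the array median and cannot be told from background, so these differences are lower bounds at best. The groups compared held 3 and 2 arrays, too few to look for single outlying samples.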

How the results depend on the processing

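With all 6 arrays the members called were 0 higher and 0 lower, and the pathway genes 1 and 0 (limma; 3 members, and 3 pathway genes in the lower direction, at an unadjusted p under 0.05). NFKBIE (-0.24) and GADD45B (-0.46) reversed there. Leaving out 1 of the 5 arrays gave 0 to 1 members higher and 2 to 4 lower, and 7 to 12 pathway genes higher and 4 to 5 lower. With 1 DMSO array left, that array was taken to vary like the gedunin arrays. With the replicate number as a block (replicate block) 2 members were higher, as NFKB2 was called (0.41, adjusted p = 0.0306), and 3 lower. With DMSO 3 set apart, gedunin 3 had no same-numbered control. The block fit therefore gave the same log2 fold changes as leaving gedunin 3 out. The deviations of same-numbered arrays correlated at -0.033 and 0.039, so the values showed no sign that the 2 shared numbers pair the arrays. With 2 DMSO arrays these correlations are not independent, and they cannot show how the cultures were set up. Centring on GAPDH and ACTB gave 1 member higher and 5 lower, and 10 pathway genes higher and 20 lower. The filter on dim probe sets left 0 members higher, since it removed NFKBIE, and an adjusted p of 0.01 left 0 higher and NFKB1 and NFKBIA lower. NFKB1 and NFKBIA kept their call in 14 of 15 alternatives, all but the one with 6 arrays. Not all of these could have changed it. Each of these genes has 1 probe set, so the probe set choice repeated the main fit. Centring on GAPDH and ACTB lowered every fold change, and so could only deepen their falls. The number of arrays limits precision, and values near the lower quartile cannot be told from background here.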
